A study of Mus musculus with 18 samples.

Results

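The phase II conjugation enzymes studied here were the glutathione S-transferases (GST), the UDP-glucuronosyltransferases (UGT) and the sulfotransferases (SULT). They were chosen by name among protein-coding genes, as the alpha, kappa, mu, omega, theta and zeta GSTs, the UGT1A, UGT2A, UGT2B and UGT3A enzymes and the numbered SULTs, a rule that uses no measured value. The rule found 61 genes of 54532 listed, of which 22046 are protein-coding: 19 GSTs, 21 UGTs and 21 SULTs. The pi class GSTs were not included. Liver RNA was sequenced from 18 wild-type (WT) male C57BL/6J mice, 1 library per mouse, after an overnight fast. Ctrl mice (n = 5) ate an isocaloric control diet and B2D mice (n = 5) a diet 99% deficient in riboflavin (vitamin B2) for 4 wk from 4 wk of age, which the labels give as 1 month. Ctrl+FF (n = 4) and B2D+FF (n = 4) mice ate the same diets for 9 wk and were gavaged daily with fenofibrate, a drug that activates the nuclear receptor PPARα, at 300 mg/kg in weeks 7 to 9, the last dose 2 hr before harvest. The purpose was to ask how loss of dietary riboflavin, and with it of FAD, changes liver gene expression, and what fenofibrate adds.

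Conjugation makes a compound more soluble in water so that bile or urine can carry it away. GSTs join glutathione to reactive electrophiles, UGTs transfer a sugar, mostly glucuronic acid from UDP-glucuronic acid, to bilirubin, steroids, bile acids and drugs, and SULTs transfer sulfate from PAPS to phenols, steroids and bile acids. The liver is the main site of all these reactions, and many of the genes are known to respond to the receptors CAR, PXR, AhR and PPARα, to the stress factor NRF2 and to growth hormone.

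Each library held 15320729 to 21898502 reads over genes, and libraries of a group correlated with each other at r = 0.955 to 0.989 across genes. The lowest of these values was in B2D. All 8 hepatocyte markers were present in every group, with summed levels of 36770 to 47190 FPKM in Ctrl, 37290 to 52130 in B2D, 26700 to 30840 in Ctrl+FF and 23170 to 28350 in B2D+FF. FPKM counts reads per length of gene and per size of library, so levels of genes of different length can be compared. Summed over lists, levels across the 18 libraries were 4.78 to 38.0 FPKM for 6 cholangiocyte markers, 40.9 to 112 for 6 Kupffer cell markers, 24.9 to 40.1 for 6 endothelial markers, 15.4 to 45.6 for 6 stellate cell markers, 0.168 to 2.34 for 6 lymphocyte markers, 0.482 to 13.7 for 5 neutrophil markers, 91.2 to 690 for 5 red blood cell markers and 87.5 to 256 for 6 pancreas and gut markers. The neutrophil marker Ly6g was at 0 in 3 of the groups and the pancreas marker Cpa1 in 3.

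Stretches of promoter are shown for 1 member of the GSTs, 2 UGTs and 1 SULT in which a known motif was matched. RefSeq (GRCm38.p6) gave 64 start-site windows for 53 of the 61 genes, each with 250 bases before and 50 after the start. Each window was searched on both strands for the core of the antioxidant response element that NRF2 binds (TGACNNNGC), a STAT element (TTCNNNGAA), the direct repeat bound by PPARα with RXR (AGGNCA, any base, AGGNCA) and an element bound by the liver factor HNF1 (GTTAAT, any base, ATT). The HNF1 letters were found in 8 of 64 member windows, or 12.5%, against 0.399% of 32851 windows of all genes. They stood before Ugt1a1, Ugt1a9, Ugt1a10 and Sult1d1, and before Sult2a3, Sult2a4, Sult2a5 and Sult2a6. The matches before the Sult2a genes are identical and the UGT1A genes share a locus, so these windows are not independent. Sult2a3, Sult2a4 and Sult2a5 had 0 reads in every mouse and Sult2a6 at most 2. Ugt1a10 averaged at most 0.288 FPKM in any group. The antioxidant letters were found in 3 member windows (Gsta3, Gstm5 and Gstm7), 4.69% against 12.4%, the STAT letters in 4 (Gsta1, Gstm6, Sult3a1 and Ugt1a6a), 6.25% against 8.30%, and the PPARα letters in 0 against 0.381%. A match is only a match of letters, and the motifs do not overlap in the stretches below, where capitals mark the matched letters. Gsta3 is shown because it was the GST that fell on the B2D diet without fenofibrate, Ugt1a1 and Sult1d1 as abundant members with the HNF1 letters, and Ugt1a9 beside Ugt1a1 because each has its own promoter before the same shared exons. The Gsta3 stretch is chr1:21240439-21240498 on the plus strand, that of Ugt1a9 chr1:88070659-88070718 (plus), that of Ugt1a1 chr1:88211889-88211948 (plus) and that of Sult1d1 chr5:87569051-87569110 (minus), each 60 bases long and ending before the start site.
Gsta3: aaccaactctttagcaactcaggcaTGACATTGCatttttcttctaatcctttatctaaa
Ugt1a9: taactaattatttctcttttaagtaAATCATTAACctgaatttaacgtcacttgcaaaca
Ugt1a1: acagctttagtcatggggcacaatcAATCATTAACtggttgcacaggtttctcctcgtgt
Sult1d1: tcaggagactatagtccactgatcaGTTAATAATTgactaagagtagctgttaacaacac
In Ugt1a9 and Ugt1a1 the HNF1 letters lie on the opposite strand, from 95 and 45 bases before the start, and in Sult1d1 on the gene's own strand from 79 bases before it. The Gsta3 match begins 121 bases before its start.

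Few members made up most of the message. In Ctrl livers 17 of 61 members had a mean of at least 50 FPKM and 24 a mean under 0.5, and the 16 highest members were needed to reach 90% of the families' summed level. The highest were Ugt2b5 at 528 ± 124 FPKM (SD, n = 5), Sult2a8 at 379 ± 94.2, Gstm1 at 282 ± 98.2, Ugt2b36 at 261 ± 59.1, Sult1a1 at 255 ± 62.2 and Gsta3 at 190 ± 41.2. The ranges of mean ± SD of neighbours in this order overlapped. Among SULTs, the 3 highest (Sult2a8, the phenol enzyme Sult1a1 and Sult1d1, which acts on catecholamines) were needed to reach 90% of the level, and 13 of 21 passed the filter on low values in neither table. Members at 0 in every mouse numbered 10 of 61 in either table, 7 SULTs, 2 UGTs and 1 GST.

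The summed level of all members was 3292 ± 462 FPKM in Ctrl and 2687 ± 336 in B2D, and 2934 ± 193 in Ctrl+FF and 2810 ± 247 in B2D+FF. UGTs summed to 1572 ± 305 in Ctrl and 1200 ± 270 in B2D, and SULTs to 722 ± 140 and 486 ± 111. GSTs summed to 998 ± 138 and 1001 ± 199. The mean GST sum was thus nearly the same in the groups without fenofibrate, but B2D 4 stood at 1328 and the other B2D mice at 848 to 1055. The medians were 973 in Ctrl and 888 in B2D. Gstm1 was 28.2% of the mean GST level in Ctrl and 42.0% in B2D. Its level was highest in B2D 4, at 667 FPKM, and overlapped widely between the groups. With fenofibrate, GSTs summed to 1353 ± 126 in Ctrl+FF and 1396 ± 196 in B2D+FF, UGTs to 1083 ± 72.3 and 1035 ± 102, and SULTs to 498 ± 139 and 380 ± 44.6. Sult2a8 was 52.4% of the SULT level in Ctrl and 49.2% in Ctrl+FF, and in B2D+FF Sult1d1 led with 43.8%. These sums were described without a test. In whole liver, fewer cells of a type and less RNA per cell cannot be told apart.

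**Figure D1:**
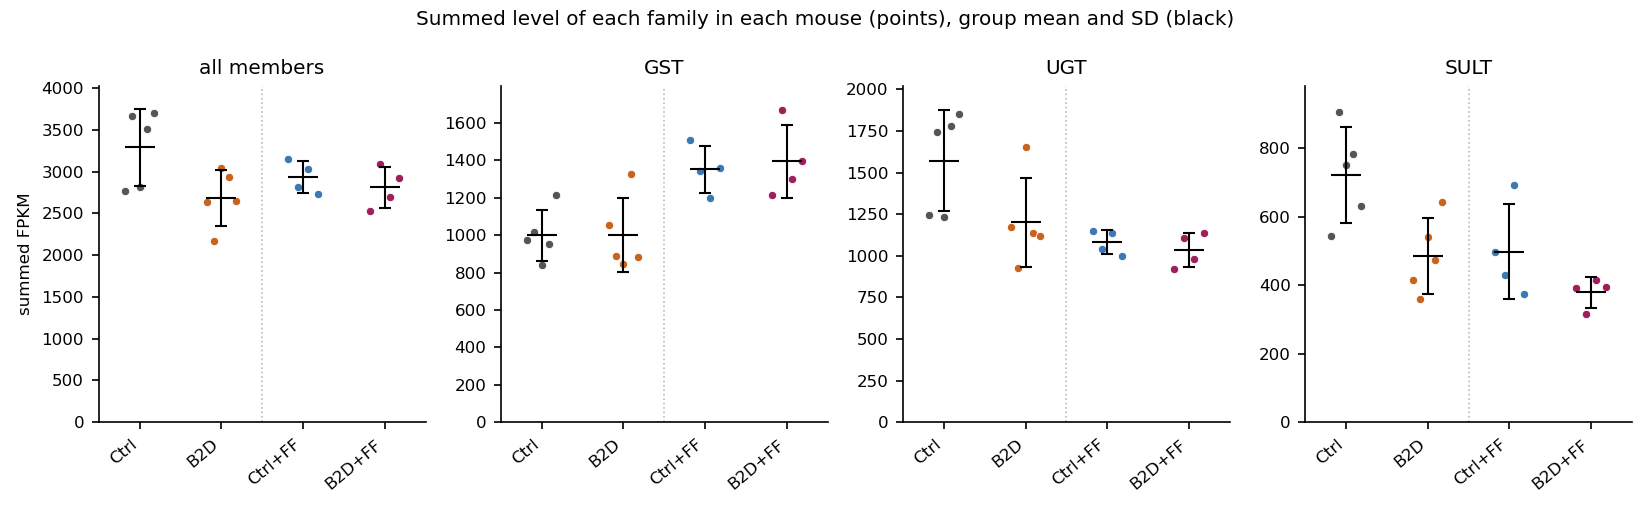
Summed FPKM of all 61 members and of the GST, UGT and SULT families in each mouse (points) by group, with the group mean and SD (black); the dotted line separates the table without fenofibrate from the table with it, which were normalized separately. The SULT mean is 722 FPKM in Ctrl and 486 in B2D, and the GST means are 998 and 1001.

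Members were tested between diets within each table with limma on log2(FPKM + 1), with Benjamini-Hochberg correction over all genes tested. A difference on this scale understates the change of genes with low values. Of the 61 members, 38 passed the filter (mean of at least 0.5 FPKM) without fenofibrate and 39 with it, 37 of them in both. Gsta1 and Ugt2b37 passed only with fenofibrate and Sult5a1 only without. Ugt2b38, Sult5a1 and Sult1e1 passed in the table without fenofibrate only through the group in which they were high, so counts over the tested members are descriptions.

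Without fenofibrate, 3 of 38 members tested fell on the B2D diet (Gsta3, Ugt2b38 and Sult5a1), beside 1.94% of all 11574 genes tested that fell. Of these, Ugt2b38 and Sult5a1 passed the filter only through the Ctrl group, so the count is a description. By limma's adjusted p 0 of the 38 rose, beside 0.769% of all genes, and 1 (Sult1e1) did by limma voom on reads. At an unadjusted p under 0.05, 14 were lower and 4 higher, beside 10.1% and 8.24% of all genes. The groups did not overlap, B2D lower, for 2 members (Gsta3 and Ugt2b38), beside 2.89% of all genes, and B2D higher for 1 (Sult1e1), beside 2.08%. The median difference was -0.35 log2 over 14 UGTs, -0.15 over 8 SULTs and 0.02 over 16 GSTs, beside -0.0013 over all genes tested. Highly expressed genes lay lower as a whole: over 849 genes with a mean of at least 50 FPKM the median was -0.11, and over the 17 members among them it was -0.39. At an unadjusted p under 0.05, 177 of these 849 genes were lower and 48 higher. Of the 17 members, 9 were lower and 0 higher at that cutoff.

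Gsta3 (ENSMUSG00000025934, chr1:21240589-21265661), an alpha class GST with high activity toward the epoxide of aflatoxin B1, was at 166, 199, 132, 222 and 232 FPKM in the 5 Ctrl mice and at 125, 87.6, 109, 99.6 and 130 in the 5 B2D mice. Every B2D mouse lay below every Ctrl mouse, the closest values being 130 and 132. The means were 190 ± 41.2 and 110 ± 17.4, 1.73-fold lower in B2D, a difference of -0.77 ± 0.168 log2 (SE; limma adjusted p = 0.0364). With 1 mouse left out adjusted p ranged from 0.0135 to 0.105, and the call held in 3 of 10 sets (without Ctrl 3, B2D 1 or B2D 5) and was lost in the others. It was 0.105 at most under the other settings, with the call lost under no filter and under quantile normalization. With fenofibrate Gsta3 was at 214, 213, 227 and 179 FPKM in Ctrl+FF and 195, 236, 162 and 150 in B2D+FF, with overlap (-0.18 ± 0.151 log2, adjusted p = 0.535). The antioxidant letters before its start are printed above.

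Ugt2b38 (ENSMUSG00000061906, chr5:87409942-87424203), one of the UGT2B enzymes that conjugate steroids and drugs, was at 1.34, 5.26, 2.44, 9.43 and 1.92 FPKM in Ctrl and at 0.460, 0.124, 0.964, 0.0272 and 0.334 in B2D. All B2D mice were below 1 FPKM and all Ctrl mice above it, and the B2D values rested on 1 to 32 reads each. The mean was 4.08 ± 3.35 in Ctrl and 0.382 ± 0.367 in B2D, 10.7-fold lower (-1.69 ± 0.356 log2, limma adjusted p = 0.0311). The call was lost without Ctrl 2, where adjusted p was 0.0900, without B2D 2, 4 or 5, and with no filter. With fenofibrate the gene was at 10.5, 8.77, 9.07 and 9.17 FPKM in Ctrl+FF and 7.11, 11.9, 9.84 and 9.62 in B2D+FF, with overlap (0.02 ± 0.133, adjusted p = 0.963). In 19.2% of its windows of 150 bases it is identical to other transcripts, most of all to the far more abundant Ugt2b5, so the split of reads between these genes is uncertain.

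Sult5a1 (ENSMUSG00000000739, chr8:123140192-123158315), a sulfotransferase, was at 0.712, 1.46, 1.40, 1.24 and 1.34 FPKM in Ctrl and at 0.393, 0.292, 0.284, 0.525 and 0.916 in B2D. The groups overlapped through Ctrl 1 and B2D 5. Its difference was -0.59 ± 0.139 log2 (limma adjusted p = 0.0432), and the call held only without Ctrl 1 or B2D 5 among the 10 sets with 1 mouse left out, with adjusted p up to 0.120, and was lost with no filter and with upper quartile scaling. In the fenofibrate table it did not pass the filter, at 0.276, 0.385, 0.651 and 0.320 FPKM in Ctrl+FF and 0.213, 0.0556, 0.175 and 0.132 in B2D+FF. There each B2D+FF mouse lay below each Ctrl+FF mouse.

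With fenofibrate, 5 of 39 members tested fell on the B2D diet (Sult2a8, Ugt3a1, Ugt2b1, Sult2a7 and Gstt1), beside 2.21% of all 11878 genes tested, and 1 rose (Gsto1), beside 2.24% of all genes. At an unadjusted p under 0.05, 5 were lower and 6 higher, beside 9.93% and 11.3% of all genes. Scaled to 1 upper quartile, 366 genes fell and 223 rose in place of 263 and 266, and the same 6 members passed. The groups did not overlap, B2D+FF lower, for 5 members, the same 5 that fell, beside 6.44% of all genes, and B2D+FF higher for 5 (Gsto1, Gstm4, Gstt3, Ugt1a1 and Sult1e1), beside 7.82%. The median difference was 0.08 log2 over 17 GSTs, -0.17 over 15 UGTs and -0.33 over 7 SULTs, beside 0.01 over all genes tested. The 6 lymphocyte markers summed to 1.07 to 1.62 FPKM in Ctrl+FF and 0.168 to 0.894 in B2D+FF. In both groups 0 of the 6 had a mean of at least 0.5 FPKM, so these sums rest on values under the filter. The sums of the hepatocyte markers overlapped. The part of these markers in the differences was not tested.

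Sult2a8 (ENSMUSG00000030378, chr7:14410686-14446769), a liver sulfotransferase that acts on bile acids in mice, was at 214, 216, 381 and 169 FPKM in Ctrl+FF and at 47.7, 41.8, 73.3 and 60.8 in B2D+FF. The highest B2D+FF mouse was below the lowest Ctrl+FF mouse by more than the whole spread of B2D+FF. Means were 245 ± 93.3 and 55.9 ± 14.1, 4.38-fold lower (-2.08 ± 0.256 log2, limma adjusted p = 0.00391). It was called in each of 8 sets with 1 mouse left out, with adjusted p at most 0.0187, and under all 8 other settings. Without fenofibrate Sult2a8 was at 274, 490, 322, 466 and 341 FPKM in Ctrl mice and 156, 159, 277, 115 and 277 in B2D mice. These groups overlapped by the lowest Ctrl mouse alone (-0.99 ± 0.255 log2, adjusted p = 0.0659), and the value passed without B2D 3 or without B2D 5 (lowest 0.0428) and under 4 of 8 other settings.

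Sult2a7 (ENSMUSG00000094156, chr7:14465051-14494230), the neighbour of Sult2a8 on the same strand, was at 5.72, 4.23, 5.31 and 4.06 FPKM in Ctrl+FF and 1.42, 2.42, 3.59 and 1.64 in B2D+FF, without overlap. It was 2.13-fold lower (-0.87 ± 0.195 log2, limma adjusted p = 0.0397), a call that held only without B2D+FF 3 among the 8 sets with 1 mouse left out (adjusted p up to 0.115 without Ctrl+FF 1) and was lost with no filter. No 150-base window of its transcripts is shared with Sult2a8. Without fenofibrate it was at 1.10, 2.34, 1.47, 1.10 and 1.46 FPKM in Ctrl mice and 1.02, 1.83, 1.11, 2.10 and 2.47 in B2D mice, with overlap (0.11 ± 0.175, adjusted p = 0.781).

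Ugt2b1 (ENSMUSG00000035836, chr5:86916638-86926530), another UGT2B enzyme, was at 28.3, 20.5, 23.8 and 21.7 FPKM in Ctrl+FF and at 2.81, 13.8, 7.91 and 5.23 in B2D+FF. All B2D+FF mice lay below all Ctrl+FF mice. The mean was 3.17-fold lower (-1.70 ± 0.347 log2, limma adjusted p = 0.0277), and the call was lost without any 1 of the 4 Ctrl+FF mice or without B2D+FF 4 (adjusted p at most 0.0887) and with no filter. Without fenofibrate its level was 135, 188, 126, 229 and 158 FPKM in Ctrl and 96.0, 51.1, 170, 69.7 and 72.3 in B2D. B2D 3 stood among the Ctrl mice and the other B2D mice below them (-0.95 ± 0.280 log2, adjusted p = 0.103, and 0.0169 without B2D 3).

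Ugt3a1 (ENSMUSG00000072664, chr15:9276888-9315032) belongs to the UGT3A enzymes, which use sugars other than glucuronic acid. It was at 41.9, 36.8, 38.3 and 32.5 FPKM in Ctrl+FF and 20.9, 21.0, 23.8 and 27.4 in B2D+FF, without overlap, 1.61-fold lower (-0.66 ± 0.114 log2, limma adjusted p = 0.0159). The call was lost without Ctrl+FF 1 or Ctrl+FF 2, where adjusted p was at most 0.0577, and held under all 8 other settings. Without fenofibrate the values were 29.9, 36.7, 27.6, 39.3 and 38.3 in Ctrl and 21.1, 19.4, 29.3, 19.5 and 25.2 in B2D. Here B2D 3 alone reached into the Ctrl range (-0.57 ± 0.143, adjusted p = 0.0602, and past the threshold without Ctrl 3 or without B2D 3, at 0.0307 for the lower of both). Ugt3a1 also passed there with a filter of 5 FPKM, voom, array weights and 1 fit of all 4 groups. Its neighbour Ugt3a2 was at 143 ± 21.8 FPKM in Ctrl mice and 106 ± 20.4 in B2D mice (adjusted p = 0.160), and 139 ± 19.7 and 125 ± 26.8 with fenofibrate (0.622).

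Gstt1 (ENSMUSG00000001663, chr10:75783813-75798584), a theta class GST that also acts on small halogenated compounds, was at 223, 217, 225 and 184 FPKM in Ctrl+FF and 146, 155, 163 and 166 in B2D+FF, without overlap. It was 1.35-fold lower (-0.43 ± 0.0992 log2, limma adjusted p = 0.0455). The call held only without Ctrl+FF 4 among the 8 sets with 1 mouse left out, with adjusted p up to 0.141 without Ctrl+FF 2, and was lost with no filter and in the fit of all 4 groups. Without fenofibrate Gstt1 was at 134, 109, 82.0, 103 and 91.8 FPKM in Ctrl mice and 84.3, 75.7, 56.3, 87.4 and 75.2 in B2D mice (-0.45 ± 0.154, adjusted p = 0.158). The neighbouring theta gene Gstt3 stood the other way: 20.3, 19.0, 19.3 and 20.4 FPKM in Ctrl+FF and 23.1, 31.9, 24.0 and 27.3 in B2D+FF, without overlap but not past the threshold (0.40 ± 0.107, adjusted p = 0.0668). Gstt3 did pass with a filter of 5 FPKM, voom and array weights. Of its exonic bases 13.6% also lie in exons of Gm20441, so part of its reads is uncertain.

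Gsto1 (ENSMUSG00000025068, chr19:47854970-47864790), the omega class enzyme with thioltransferase and dehydroascorbate reductase activity, was the member that rose. It was at 48.4, 48.2, 51.7 and 48.8 FPKM in Ctrl+FF, the tightest of all tested members there, and at 74.8, 70.9, 71.1 and 88.6 in B2D+FF. The groups were far apart against that spread, with B2D+FF 1.55-fold higher (0.62 ± 0.0944 log2, limma adjusted p = 0.0103). The call held in each of 8 sets with 1 mouse left out (adjusted p at most 0.0432) and under all 8 other settings. Without fenofibrate Gsto1 was at 50.1, 57.0, 54.7, 53.9 and 56.8 FPKM in Ctrl mice and 70.2, 62.2, 60.9, 76.6 and 52.5 in B2D mice, with B2D 5 inside the Ctrl range (0.23 ± 0.111, adjusted p = 0.300).

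**Figure D2:**
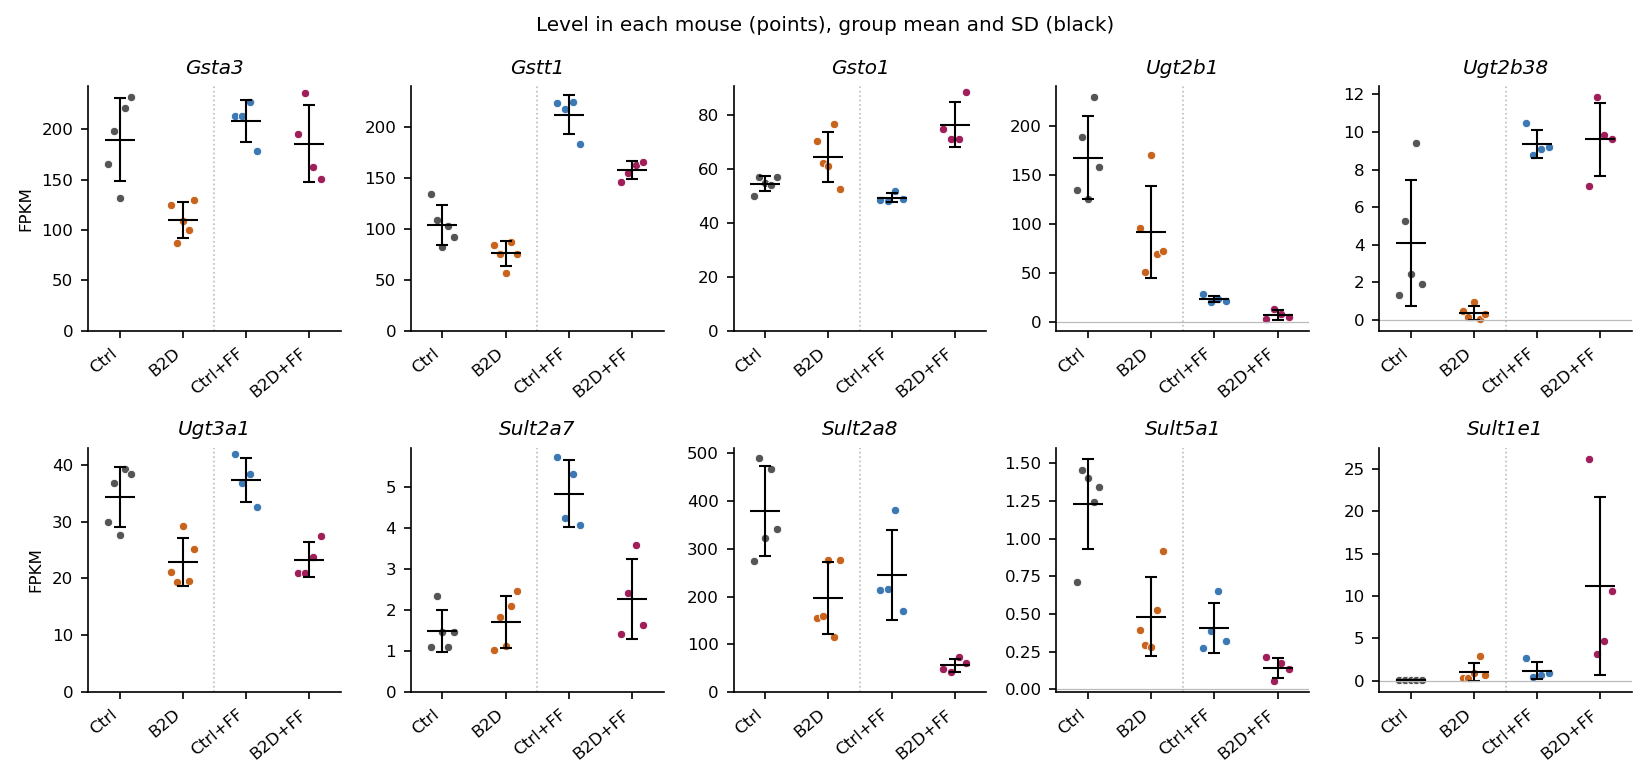
FPKM of the 9 members past the threshold in either table and of Sult1e1 in each mouse (points), by group, with mean and SD (black), each panel on its own linear scale; the dotted line separates the tables. Sult2a8 lies at 41.8 to 73.3 FPKM in B2D+FF, below all other mice, and Gsto1 in B2D+FF lies at 70.9 or more, above all Ctrl and Ctrl+FF mice.

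Sult1e1 (ENSMUSG00000029272, chr5:87575969-87591594), the estrogen sulfotransferase, was near absence in Ctrl livers, with 2, 1, 1, 1 and 1 reads, and had 6, 8, 19, 69 and 17 reads in B2D. Every B2D mouse was above every Ctrl mouse. Pooled over mice and scaled to library size, the B2D level was 20.7 times that of Ctrl, with an exact 95% interval of 9.25 to 57.7 that covers counting error only. Between the mice, limma gave 0.81 ± 0.246 log2 (adjusted p = 0.109). With fenofibrate it was at 2.65, 0.489, 0.695 and 0.950 FPKM in Ctrl+FF and 26.2, 3.21, 4.75 and 10.6 in B2D+FF. The groups again did not overlap, with mice of B2D+FF spread over a wide range, and the difference did not pass the threshold (2.18 ± 0.536 log2, adjusted p = 0.0541). With 1 mouse left out it passed in 1 of 8 sets, without B2D+FF 2 (0.0309). It also passed with a pseudocount of 0.1 in place of 1, a filter of 5 FPKM, array weights and 1 fit of all 4 groups, 4 of 8 other settings, over which adjusted p ranged from 0.0103 to 0.138. Without fenofibrate Sult1e1 passed with a pseudocount of 0.1 and by voom (adjusted p down to 0.0311). There it met the filter only through the B2D group, so both calls are descriptions.

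Sult3a1, an amine sulfotransferase, was chosen after its values were seen and failed the filter in both tables. It had 0, 0, 1, 0 and 0 reads in Ctrl and 1, 11, 11, 43 and 38 in B2D, and 4 to 12 reads in Ctrl+FF and 5 to 22 in B2D+FF. Of the 5 B2D mice, 4 were above all Ctrl mice. Sult2a2 was read in 3 B2D mice alone, with 5, 3 and 4 reads.

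The remaining abundant members did not pass the threshold. Gstm1, the leading mu class enzyme, was at 297, 235, 219, 211 and 447 FPKM in Ctrl mice and 475, 355, 328, 667 and 276 in B2D mice (0.56 ± 0.259 log2, adjusted p = 0.273), and at 482, 362, 191 and 455 in Ctrl+FF and 311, 669, 406 and 446 in B2D+FF (0.33 ± 0.317, adjusted p = 0.599). Both pairs of groups overlapped widely. Gstz1, the zeta class enzyme that is also maleylacetoacetate isomerase of tyrosine breakdown, averaged 157 ± 24.3 in Ctrl and 126 ± 18.9 in B2D (adjusted p = 0.244). Ugt2b5 averaged 528 ± 124 and 395 ± 126 (0.311), Ugt2b36 261 ± 59.1 and 196 ± 28.5 (0.246) and Ugt2b34 140 ± 33.9 and 102 ± 21.1 (0.257). Sult1a1 averaged 255 ± 62.2 and 195 ± 47.1 (0.311) and Sult1b1, which sulfates thyroid hormones, 8.01 ± 2.00 and 5.56 ± 1.85 (0.251). With fenofibrate the adjusted p-values of these 6 members lay between 0.381 for Sult1b1 and 0.826 for Sult1a1.

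Ugt1a1, the enzyme that conjugates bilirubin, was at 61.7, 63.2, 56.9 and 60.2 FPKM in Ctrl+FF and 97.2, 63.5, 84.9 and 115 in B2D+FF. The groups stood apart by a narrow margin, through B2D+FF 2 (0.54 ± 0.163 log2, limma adjusted p = 0.0953, and 0.0189 without B2D+FF 2). In Ctrl it was at 54.7, 52.6, 53.5, 53.3 and 67.1 and in B2D at 63.4, 56.6, 72.1, 74.1 and 62.2 (0.22 ± 0.110, adjusted p = 0.314). The UGT1A genes share their last exons: 59.0% of the exonic bases of Ugt1a1 lie in exons of other genes on the same strand and 41.5% in exons on the opposite strand, so reads of the shared part cannot be given to 1 gene. Sult1d1 was at 114, 94.0, 151 and 90.4 FPKM in Ctrl+FF and 212, 147, 135 and 171 in B2D+FF (0.57 ± 0.191, adjusted p = 0.127). Gstm4 was at 35.6, 38.2, 25.9 and 43.7 and at 44.7, 56.8, 43.9 and 58.9, without overlap (0.51 ± 0.167, adjusted p = 0.118).

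**Figure D3:**
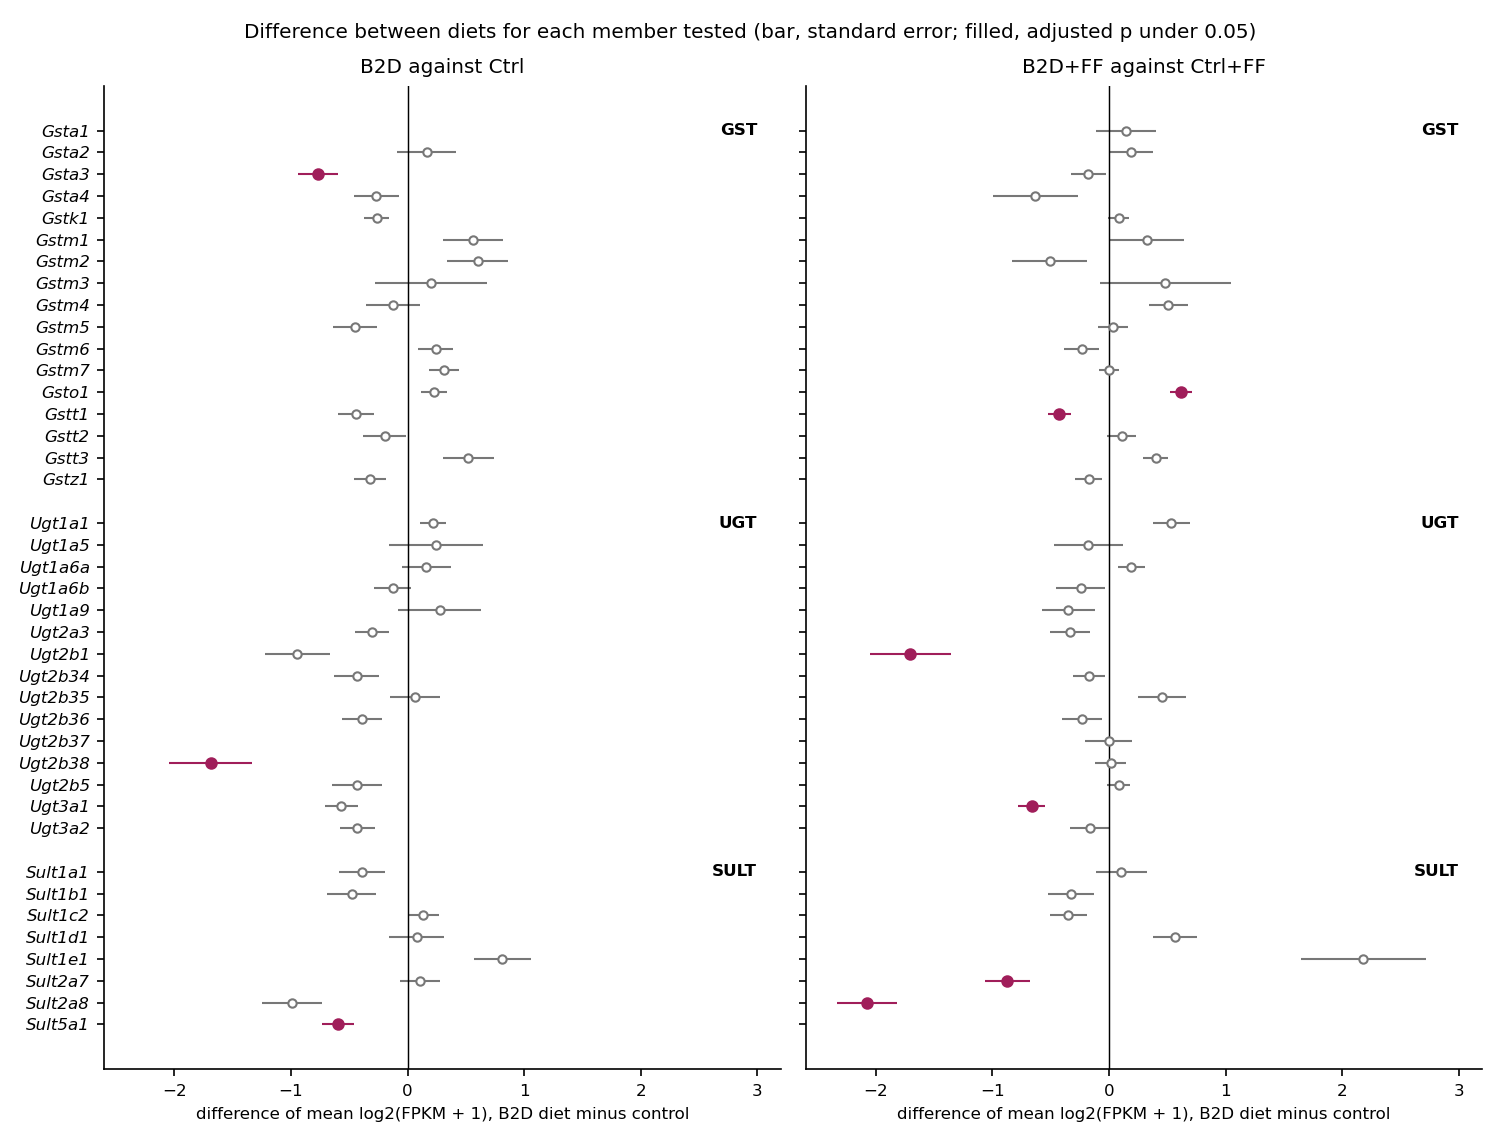
Difference of the mean log2(FPKM + 1) between the B2D and control diets for the 40 members tested in at least 1 table, without fenofibrate (left) and with it (right); bars are standard errors and filled points passed a limma adjusted p of 0.05. Filled points are Gsta3, Ugt2b38 and Sult5a1 on the left, and Gstt1, Gsto1, Ugt2b1, Ugt3a1, Sult2a7 and Sult2a8 on the right.

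Whether the effect of the diet differed between the tables was tested as a contrast over all 18 libraries. Of 40 members tested, 0 passed limma's adjusted threshold, beside 0.228% of 11862 genes tested, 0 passed by voom, and 5 were lower and 5 higher at an unadjusted p under 0.05, beside 5.21% and 6.69% of all genes. The lowest adjusted p-values were those of Ugt2b38 (1.70 ± 0.450 log2, 0.123) and Sult2a7 (-0.98 ± 0.277, 0.146). For Sult2a8 the difference of effects was -1.09 ± 0.391 (0.284), for Gsto1 0.39 ± 0.144 (0.292) and for Gsta3 0.59 ± 0.239 (0.337). The calls above are thus not shown to be particular to either table. Fenofibrate, time on diet and the separate normalization cannot be told apart in this contrast.

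Levels with and without fenofibrate come from tables normalized separately, from mice with 9 and 4 wk of diet, and are set side by side without a test. Over the 4421 genes with at least 5 FPKM in both tables, the median log2 ratio of Ctrl+FF to Ctrl was -0.03, with 90% of genes between -0.83 and 0.90, and over the 30 members among them it was 0.14. Theta class GSTs stood higher in the fenofibrate table: Gstt3 was 4.97 ± 1.57 FPKM in Ctrl and 19.7 ± 0.688 in Ctrl+FF, Gstt1 104 ± 19.7 and 212 ± 19.3, and Gstt2 31.1 ± 6.35 and 54.2 ± 6.62. This was not particular to the theta class. The ratio of Ctrl+FF to Ctrl was 1.86 for Ugt1a9, 1.82 for Ugt1a5 and 1.81 for Gstm4, beside 1.74 for Gstt2. Ugt2b1 stood lowest against the table without the drug, at 167 ± 42.2 in Ctrl and 23.5 ± 3.42 in Ctrl+FF, and at 91.8 ± 46.5 in B2D and 7.44 ± 4.72 in B2D+FF. Sult1a1 was at 255 ± 62.2 in Ctrl and 123 ± 23.9 in Ctrl+FF, and Ugt2a3 at 125 ± 22.3 and 63.4 ± 10.1. Of the 30 members, 18 were higher and 12 lower in Ctrl+FF than in Ctrl, and 21 higher and 9 lower in B2D+FF than in B2D.

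**Figure D4:**
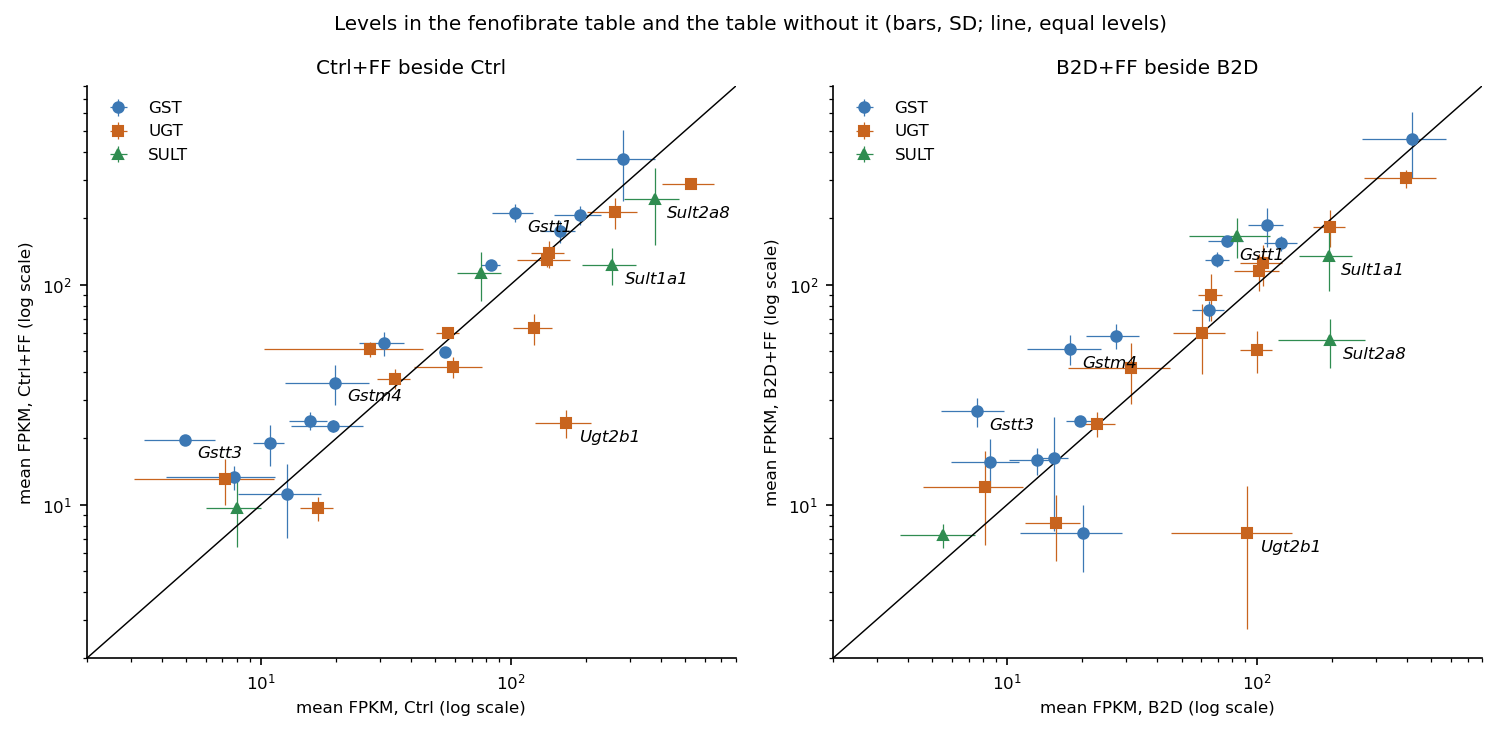
Mean FPKM of the 30 members with at least 5 FPKM in both tables, Ctrl+FF against Ctrl (left) and B2D+FF against B2D (right), both axes on log scales, with SD bars and the line of equal levels. Ugt2b1 lies farthest below the line in both panels and Gstt3 farthest above it.

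Mice of 1 group differed from each other across several GSTs at once. Over the 7 mu class members tested, Ctrl 5 was the highest Ctrl mouse for 6, B2D 4 the highest B2D mouse for 6, B2D+FF 2 the highest of its group for 6 and Ctrl+FF 3 the lowest of its group for 6. The same Ctrl 5 and B2D+FF 2 were also the highest of their groups for all 3 and all 4 alpha class members tested. Gstm3 showed this most: it was at 10.9 FPKM in B2D 4 and at 0.361 to 1.52 in the other B2D mice, and at 27.4 in B2D+FF 2 and 5.57 to 6.40 in the others. The coefficient of variation over mice was largest for Gstm3 in B2D (150%) and in B2D+FF (95.5%), against medians of 26.5% and 21.4% over the members tested. Without B2D 4 the median difference of the GSTs between B2D and Ctrl was -0.28 log2 in place of 0.02. The mu class genes lie side by side on chromosome 3, and no window of 150 bases of Gstm1 or Gstm4 is shared with another gene.

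**Figure D5:**
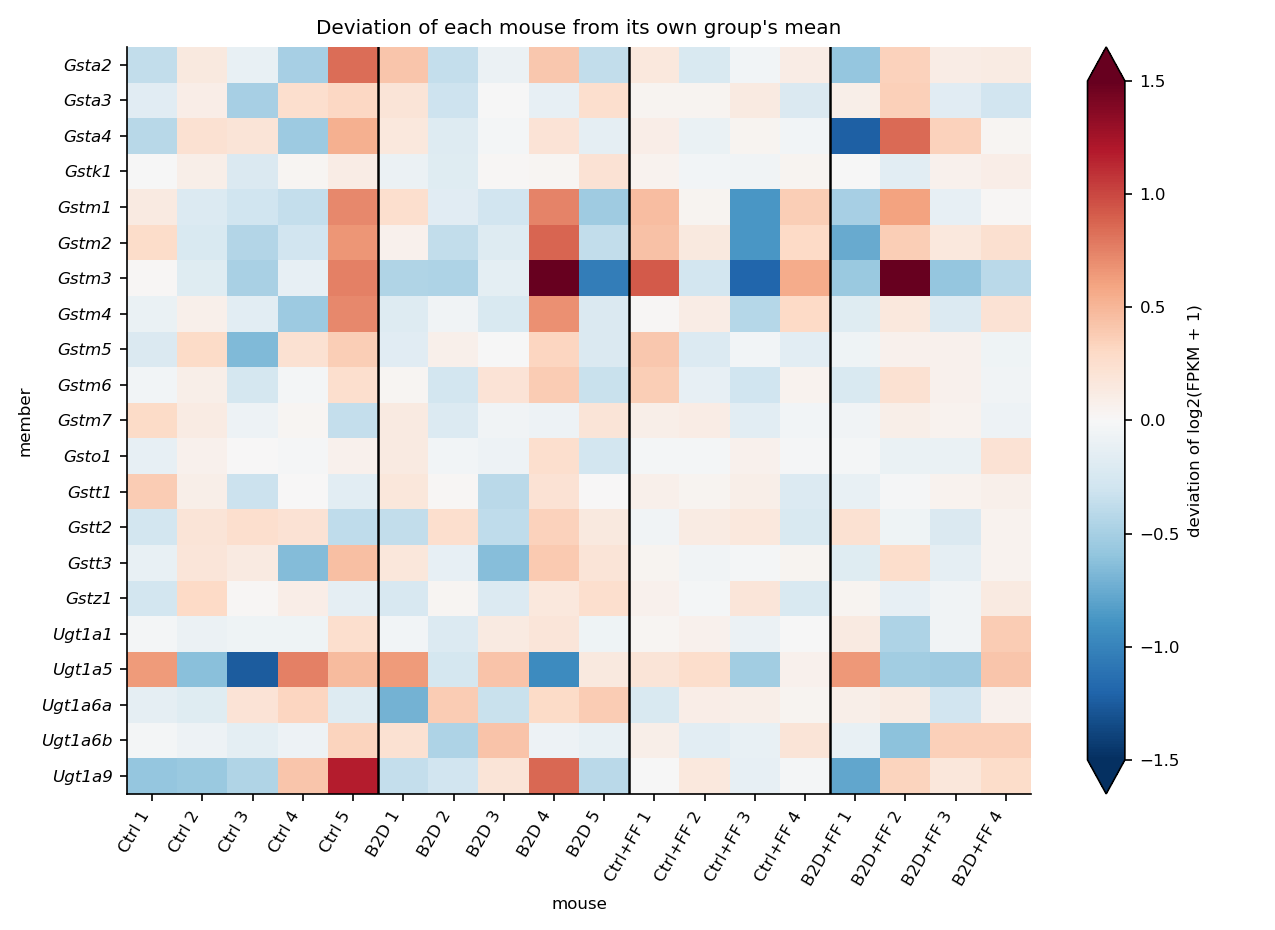
Deviation of log2(FPKM + 1) of each mouse from the mean of its own group, for the GST and UGT1A members tested in both tables; colours run from 1.5 below (blue) to 1.5 above (red), and black lines separate the groups. The columns of Ctrl 5, B2D 4 and B2D+FF 2 are red over Gstm1 to Gstm4.

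Genes that feed these enzymes were counted by list. For the lists here and below, the shares of all genes tested that passed without fenofibrate were 1.94% lower and 0.769% higher. With fenofibrate they were 2.21% and 2.24%. At an unadjusted p under 0.05 they were 10.1% and 8.24% without fenofibrate, and 9.93% and 11.3% with it. Counts by voom are of genes past its adjusted p of 0.05. Of the glutathione supply and recycling list, 0 of 13 tested passed without fenofibrate (3 lower at an unadjusted p under 0.05, 0 by voom). With it, 2 of 14 passed, and 1 was lower and 3 higher at an unadjusted p under 0.05. By voom's adjusted p, 1 was lower and 3 higher with fenofibrate. Gss, which makes glutathione, rose (0.51 ± 0.0924 log2, limma adjusted p = 0.0182) and Chac2, which breaks it down, fell (-0.56 ± 0.102, 0.0182). Their calls held in 5 and 7 of 8 sets with 1 mouse left out, with adjusted p up to 0.0729 and 0.0646, both without Ctrl+FF 2. Of the microsomal GSTs, Mgst3 rose with fenofibrate, from 30.8 ± 2.30 to 80.5 ± 18.0 FPKM (1.33 ± 0.163 log2, adjusted p = 0.00391, at most 0.0194 with 1 mouse left out), and Mgst1, the most abundant, did not pass. Ugdh, which makes UDP-glucuronic acid, was at 23.6 ± 2.52 FPKM in Ctrl+FF and higher, at 36.0 ± 5.88, in B2D+FF (0.58 ± 0.134, limma adjusted p = 0.0448), called in 1 of 8 such sets and at 0.126 without Ctrl+FF 2. It was 1 of 7 genes of that list that passed, with 3 higher at an unadjusted p under 0.05 and 1 by voom, and 0 of 7 did without fenofibrate, where 1 was higher at an unadjusted p under 0.05 and 0 passed by voom. Of 9 genes of sulfate donor (PAPS) supply 0 passed limma's adjusted threshold in either table, with 1 lower in each at an unadjusted p under 0.05 and 0 by voom. Of the export pumps 0 of 6 and 0 of 7 passed, with 1 lower without fenofibrate, 1 lower and 1 higher with it, at an unadjusted p under 0.05, and 0 and 1 by voom.

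Of 15 other conjugating enzymes, 3 fell on the B2D diet without fenofibrate and 2 with it, beside 1.94% and 2.21% of all genes tested. At an unadjusted p under 0.05, 7 were lower and 0 higher without fenofibrate, and 4 lower and 2 higher with it. By voom, 3 were lower and 0 higher without fenofibrate, and 3 lower and 1 higher with it. Nat8, an N-acetyltransferase of cysteine conjugates with close paralogs that make its reads less certain, was at 7.91 ± 1.75 FPKM in Ctrl mice and 2.12 ± 0.619 in B2D mice (-1.52 ± 0.167 log2, limma adjusted p = 0.00194) and at 12.4 ± 2.54 and 6.31 ± 1.18 with fenofibrate (-0.87 ± 0.170, 0.0245). The former held in all 10 sets with 1 mouse left out, the latter in 4 of 8, with 0.0807 without Ctrl+FF 1. Inmt, a methyltransferase of indole amines, was at 304 ± 112 and 128 ± 19.9 FPKM (-1.18 ± 0.225, 0.0204) and at 555 ± 114 and 263 ± 58.4 (-1.08 ± 0.190, 0.0171), with the call lost in 2 sets of each comparison (0.0668 without Ctrl 2, 0.0644 without Ctrl+FF 2). Acsm1, an acyl-CoA ligase of the glycine conjugation path, fell without fenofibrate (-0.75 ± 0.143, 0.0195), with the call in 8 of 10 sets and adjusted p up to 0.0668 without Ctrl 2. With fenofibrate it was at 72.7 ± 7.09 and 70.4 ± 2.79 FPKM.

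Among 18 receptors and factors known to act on these genes, the growth hormone receptor gene Ghr fell in both tables, from 48.5 ± 8.69 to 28.9 ± 4.69 FPKM (-0.73 ± 0.147 log2, limma adjusted p = 0.0265) and from 37.7 ± 3.10 to 23.4 ± 3.59 (-0.68 ± 0.122, 0.0182), with calls in 5 of 10 and 5 of 8 sets with 1 mouse left out (up to 0.0785 without Ctrl 2 and 0.0677 without Ctrl+FF 1). Esrra rose with fenofibrate (0.53 ± 0.0953, 0.0181, called in 5 of 8 sets, up to 0.0730 without Ctrl+FF 2). At an unadjusted p under 0.05, 5 of 13 tested single targets were higher and 0 lower without fenofibrate. With it, 6 were higher and 0 lower. By voom, 3 were higher and 0 lower without fenofibrate, and 4 higher and 0 lower with it. Cyp2b10, a CAR target with close paralogs, rose on the B2D diet without fenofibrate and with it. Without the drug it went from 0.0770 to 3.72 FPKM (1.82 ± 0.374, 0.0274, called in 6 of 10 sets, up to 0.0753 without Ctrl 4). With the drug it went from 1.60 ± 1.11 FPKM in Ctrl+FF to 43.7 ± 5.98 in B2D+FF (4.19 ± 0.264, 0.000356, called in all 8 sets). Cyp2b9 rose without fenofibrate from 0.355 to 55.4 FPKM (4.66 ± 0.696, 0.00664, called in all 10 sets). Without fenofibrate, Cyp2b9 and Cyp2b10 passed the filter only through the B2D group, so both calls there are descriptions. The NRF2 target Nqo1 rose with fenofibrate (0.59 ± 0.0969, 0.0133, called in 7 of 8 sets, up to 0.0526 without Ctrl+FF 2). So did the PXR target Cyp3a11 (0.76 ± 0.165, 0.0355, called in only 2 of 8 sets, up to 0.104 without Ctrl+FF 1). The other NRF2 targets of this list did not pass with fenofibrate: Srxn1 (0.39 log2, limma adjusted p = 0.0909), Txnrd1 (0.13, 0.409) and Hmox1 (0.52, 0.203). Nor did the PPARα targets Cyp4a10 (-0.14, 0.740), Cyp4a14 (0.26, 0.346), Acot1 (0.18, 0.655) and Pdk4 (0.71, 0.422). The part of all these genes in the differences of the conjugation enzymes was not tested.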

How the data were processed

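Paired-end mRNA libraries of 18 livers were aligned by the authors with STAR to mm10, counted with featureCounts and tested with DESeq2 (versions and strand settings not given in the sources used here). The authors deposited 2 tables of FPKM values, 1 without and 1 with fenofibrate, which the methods call RPKM. Each table was normalized on its own. Values times gene length came out as whole reads within 0.1 for 100% of the values checked, which were those above 0 without the highest. All values were then rounded to whole reads, for floors (3 reads) and for limma voom. All columns were matched to mice by number, and mice are numbered within groups.

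Genes with a mean of at least 0.5 FPKM entered limma 3.58.1 (R 4.3.3, trend) as log2(FPKM + 1), 1 fit per table, at a Benjamini-Hochberg adjusted p of 0.05. P-values set the difference between group means against the spread between mice. The script was tested on simulated data. Alternatives were a pseudocount of 0.1, no filter, a filter of 5 FPKM, upper quartile and quantile scaling, voom, array weights, 1 fit of all groups and leaving out each mouse. Members named are those past the threshold or without overlap between diets, the 4 highest of each family in each table, and those under the floor in 1 group only. The rule for members uses names alone, but these families and the lists were chosen with earlier results of these data known. A listed gene is not reported here.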

Additional observations from a re-analysis of the deposited data

Results flagged for a closer look

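Among 100 sets of values (22 named members and 3 family sums, in each of 4 groups), 6 held a mouse whose distance to its nearest neighbour, set against the whole range of the group, passed Dixon's 95% limit, where chance gives about 1 in 20. In B2D, mouse B2D 4 was the highest for Gstm4, at 28.4 FPKM against 16.6 for the next, and for Sult1e1, at 2.86 against 0.872. In Ctrl, mouse Ctrl 1 was the lowest for Sult1d1, at 49.9 against 77.9, and for Sult5a1, at 0.712 against 1.24. The same mouse was the highest for Sult1e1, at 0.0905 against 0.0463, which is 2 reads against 1. Ctrl 5 was the highest for Ugt1a1, at 67.1 against 54.7. No cause was tested.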

How the results depend on the processing

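No paired analysis was possible because the labels give the groups no shared replicate numbers. Directions of named members did not reverse past the threshold under any setting run. The number of members called between B2D and Ctrl, 3 as reported, was 0 with no filter and 6 each with voom, array weights and 1 fit of all 4 groups, and 0 to 4 with 1 mouse left out, 0 without Ctrl 2, B2D 2 or B2D 4. Between B2D+FF and Ctrl+FF it was 6 as reported, 3 with no filter, 6 to 9 under the other settings (9 with array weights) and 2 to 6 with 1 mouse left out, 2 without Ctrl+FF 1 or Ctrl+FF 2. For the difference of diet effects it was 0 as reported and 1 (Ugt2b38) with array weights. The SULT median between B2D and Ctrl, -0.15, was 0.0238 with no filter, -0.43 with a filter of 5 FPKM and -0.43 to 0.14 with 1 mouse left out; between the FF groups, -0.33, it was 0.0157 with no filter and 0.11 with a filter of 5 FPKM. With 1 mouse left out the latter was -0.44 to -0.15, -0.15 without Ctrl+FF 3. The GST median, 0.02, was -0.28 to 0.14 with 1 mouse left out and 0.16 with array weights, and, with fenofibrate, 0.08, it was -0.0274 to 0.10. The UGT median, -0.35, was -0.13 with no filter, -0.20 with quantile scaling and -0.42 to -0.28 with 1 mouse left out, and, with fenofibrate, -0.17, it was -0.21 to -0.05 with 1 mouse left out, -0.05 without B2D+FF 2, -0.0882 without B2D+FF 1, -0.11 without B2D+FF 3 and -0.11 without Ctrl+FF 1. Fewer or more genes enter under the filters; the other causes were not tested. Low reads limit Sult1e1, Sult3a1, Sult5a1 and Ugt2b38.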
